A study of Mus musculus with 12 samples.

Results

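The Reg family genes described here in droplet-based single-cell transcriptomes of the mouse small intestine were Reg1, Reg3a, Reg3b, Reg3g and Reg4, which were 5 of the 20090 genes listed. They were chosen by name, and 2 further genes of the family in the table, Reg2 and Reg3d, had a value above 0 in 35 and 87 cells only. Cells were sorted as negative for CD45 and positive for EpCAM, from adult mice of the strain Lgr5DTR-GFP. That strain carries a knock-in allele with a diphtheria toxin receptor and GFP under the Lgr5 gene of crypt stem cells, and the labels name no toxin. The diet group has 8 libraries in the labels and 1 pooled table. The labels name no diet for any library and give no sign of which cells came from which library, so diets were not compared. The 2 total epithelium and 2 progenitor samples were not analysed here.

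Reg proteins are small secreted proteins with a C-type lectin fold. In the mouse intestine, Reg3g and Reg3b are bactericidal: Reg3g binds the peptidoglycan of Gram-positive bacteria and Reg3b acts against Gram-negative ones. Both are known targets of interleukin-22 acting through STAT3, and of MyD88-dependent sensing of microbes. Reg1 was first described in the regenerating pancreas, and Reg4 is known from secretory cells of the mouse gut. The question taken up here was in which epithelial cells, and where along the crypt, the villus and the intestine, each gene was found.

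The table held 27881 cells in 8 barcode sets, numbered by the ending of the cell barcode, and 27834 cells were analysed. A set held 2280 to 5320 cells, with medians of 1695 to 2576 detected genes. Between sets, 80 pairs of barcodes were shared. Levels are given in ppm of the summed deposited values of all genes. The values had no known depth, so levels carry no counting interval, and the range over barcode sets is the only measure of spread. A difference was said to meet the size rule where 3 conditions held: a mean of at least 10 ppm, a log2 difference of at least 1 in size, and 1 direction in every barcode set with at least 20 cells of both groups. No difference between groups was tested and no p-value is given. Cells and barcode sets could not be matched to the labelled samples, and the pooled table is treated as 1 sample.

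Cells were grouped by clustering without the Reg genes, and named from marker genes. The named classes were 2003 goblet-like, 497 enteroendocrine-like, 410 tuft-like, 7163 enterocyte-like and 8885 progenitor-like cells, with 162 stomach surface-like and 22 T cell-like cells. The other 8692 cells stayed unnamed. No cluster met the markers of Paneth cells, the antimicrobial cells of the crypt base, and only 4 cells had more than 20% of their values in Paneth markers, so Paneth cells were not compared. Most goblet-like cells were in set 4 (807) or set 7 (910), and set 7 alone held 341 of the enteroendocrine-like and 323 of the tuft-like cells. Reg1 and Reg3 genes are also known from pancreatic acinar cells. Only 4 of 13 acinar markers were in the table, and they summed to 25.2 ppm in enterocyte-like and 28.0 ppm in progenitor-like cells.

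Of the 7 Reg genes, 6 lie next to each other on chromosome 6, in a stretch of 98216 bases (chr6:78370657-78468872, GRCm38) that holds no other protein-coding gene. Reg4 lies apart on chromosome 3 (chr3:98222156-98236748, plus strand). The order along chromosome 6 is Reg3b, Reg3d, Reg3a, Reg2, Reg1 and Reg3g, so that the pair with the most similar levels below, Reg3b and Reg3g, stands at the ends of the stretch. The 150 bases before the annotated start are shown for the 4 chromosome 6 members, because these 4 fell into 2 regional patterns. They are RefSeq sequences of the build GRCm38.p6, written 5′ to 3′ in the direction of transcription. Capitals mark TATAAA and the STAT-type motif TTCNNNGAA, searched on both strands.
Reg3b promoter, chr6:78370735-78370884, plus strand: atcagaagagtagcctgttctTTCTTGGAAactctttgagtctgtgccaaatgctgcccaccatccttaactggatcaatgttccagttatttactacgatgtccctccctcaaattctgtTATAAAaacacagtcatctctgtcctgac
Reg3g promoter, chr6:78468875-78469024, minus strand: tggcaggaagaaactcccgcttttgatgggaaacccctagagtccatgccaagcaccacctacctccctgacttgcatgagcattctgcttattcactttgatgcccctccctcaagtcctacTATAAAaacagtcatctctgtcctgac
Reg3a promoter, chr6:78380559-78380708, plus strand: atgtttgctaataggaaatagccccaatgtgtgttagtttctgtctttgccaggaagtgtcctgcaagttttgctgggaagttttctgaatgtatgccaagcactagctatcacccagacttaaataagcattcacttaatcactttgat
Reg1 promoter, chr6:78425833-78425982, plus strand: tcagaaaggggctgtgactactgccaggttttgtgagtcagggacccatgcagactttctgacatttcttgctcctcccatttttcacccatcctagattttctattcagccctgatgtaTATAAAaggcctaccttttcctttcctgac
TATAAA was present before the starts of Reg3b, Reg3g and Reg1, at 29, 27 and 30 bases from the start, and 7.57% of 32851 promoter windows of this length hold it. TTCNNNGAA was present in the Reg3b window only, 129 bases before the start, and 4.09% of windows hold it. The Reg3b and Reg3g windows were 70.3% identical over 148 aligned bases, and the Reg1 and Reg3b windows 60.0% over 135. The motif AGATAA was found in the Reg4 window, as in 5.65% of all windows, and the other motifs searched, CAAAGTCCA (0.271% of windows) and TTGCNNCAA (0.919%), were in none of the 5. In the annotation with which gene bodies were placed, Reg3b and Reg1 begin upstream of these RefSeq starts, and both windows lie wholly within the gene there.

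The transcripts of Reg3b and Reg3g were 73.4% identical over 743 aligned bases and shared an exact run of 35 bases. The longest run shared by any other pair of the 5 genes was 24 bases. No source used here says how reads that match more than 1 gene were counted, so a small exchange between Reg3b and Reg3g is possible.

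Reg3b was the most abundant of the 5, at 2696 ppm over all cells, which was rank 23 among all genes. Reg3g had 1325 ppm, Reg1 had 912 ppm, Reg3a had 95.1 ppm and Reg4 had 40.4 ppm. These levels came from very different shares of cells. Reg1 had a value in 26.4% of cells, and the top 10% of cells held 94.8% of its sum. Reg3b had a value in 73.3% of cells, and the top 10% held 70.3%.

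Free RNA in droplets gives values in cells that do not express a gene. The 22 T cell-like cells, which should lack epithelial lectins, were taken as a rough guide to its size. Cells were sorted as negative for CD45, so some of the 22 may be doublets with epithelial cells, which was not tested. Their levels may thus lie above that of free RNA. Of the 22 cells, 4, 5 and 8 came from barcode sets 6, 7 and 8, the sets highest in Reg3b, so they are compared within sets. In sets 6 to 8 (17 cells, median 1728 detected genes), T cell-like cells had 1133 ppm of Reg3b with a value in 100% of cells, 696 ppm of Reg3g, 106 ppm of Reg1 and 70.8 ppm of Reg4. In sets 1 to 5, with 5 cells only, they had 252 ppm of Reg3b and 101 ppm of Reg3g. Reg3a had a value in 0 of 22 cells, which allows a share of up to 13.6%. Levels near or below these values are therefore not read as expression in what follows.

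Reg1, Reg3a, Reg3b and Reg3g were all higher in enterocyte-like cells, which absorb nutrients on the villus, than in progenitor-like cells, the stem and dividing cells of the crypt. These 4 members met the size rule as higher, against 15.6% of the 9409 genes considered (33.0% met it as lower and 48.6% in either direction, and the median over all genes was -0.43). Reg1 had 2736 ppm in enterocyte-like cells and 64.7 ppm in progenitor-like cells, a log2 difference of 5.38 (range over 8 sets 4.94 to 6.42). Reg3a had 277 ppm in enterocyte-like and 5.81 ppm in progenitor-like cells, a log2 difference of 5.35 (4.67 to 6.37). For both genes the lowest enterocyte-like set lay far above the highest progenitor-like set.

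Reg3b and Reg3g showed the same direction with a smaller difference. Reg3b had 4694 ppm in enterocyte-like and 903 ppm in progenitor-like cells, a log2 difference of 2.38 (1.28 to 3.66). Reg3g had 2224 ppm in enterocyte-like and 511 ppm in progenitor-like cells, a log2 difference of 2.12 (1.23 to 3.11). Free RNA bears most on the progenitor-like levels. In sets 6 to 8, Reg3b had 1823 ppm in progenitor-like and 1133 ppm in T cell-like cells, but a value in 61.7% of progenitor-like and 100% of T cell-like cells, at medians of 2874 and 1728 detected genes. Level and share thus run in opposite directions, and no order is read from them. In sets 1 to 5 Reg3b had 292 ppm in progenitor-like and 252 ppm in the 5 T cell-like cells. The progenitor-like clusters themselves were unlike. Within sets 6, 7 and 8, Reg3b had 3576, 3561 and 3210 ppm in cluster 22, against 256, 222 and 288 ppm in cluster 6, at medians of 2789 and 2991 detected genes over all sets. In level, cluster 22 thus lay above the T cell-like cells of those sets and cluster 6 below them. Over all sets, however, Reg3b had a value in 44.2% of cluster 22 cells and in 90.9% of T cell-like cells. These shares are not taken within sets, and most T cell-like cells come from sets 6 to 8. The shares and the levels therefore cannot be set side by side, and no order against T cell-like cells is read for cluster 22. In sets 1, 2, 3 and 5 the level was 397 to 763 ppm in cluster 22, against 86.2 to 189 ppm in cluster 6. Reg4 had 25.9 ppm in enterocyte-like and 23.99 ppm in progenitor-like cells, both below its pooled level in T cell-like cells, 66.9 ppm.

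**Figure D1:**
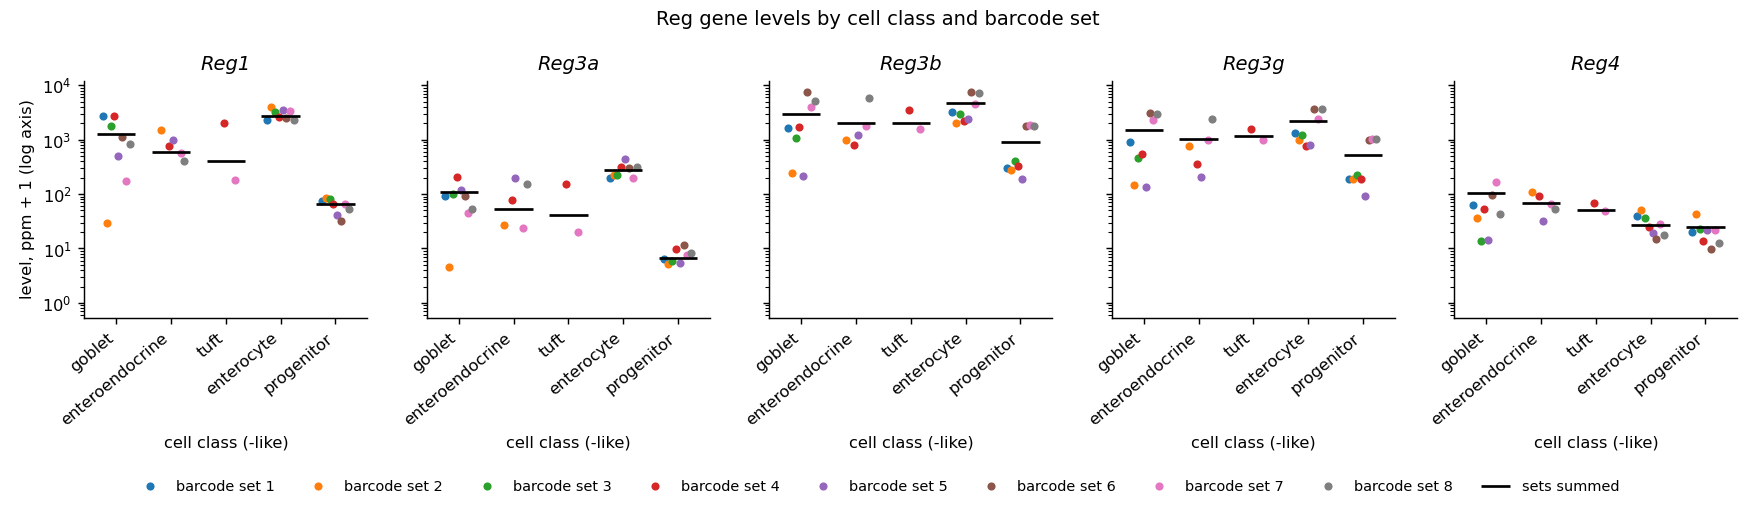
Level of each Reg gene (ppm + 1, log axis) by cell class. Points are barcode sets with at least 20 cells of the class and the bar is the sum over sets: for Reg1 and Reg3a every enterocyte-like point stands above every progenitor-like point, and Reg4 is low in all classes.

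The barcode sets differed most for Reg3b and Reg3g. In enterocyte-like cells of sets 1 to 8, Reg3b had 3201, 2039, 2909, 2215, 2358, 7426, 4562 and 7350 ppm. In progenitor-like cells of the same sets it had 305, 281, 410, 332, 186, 1753, 1872 and 1787 ppm. Sets 6, 7 and 8 were the highest 3 in both classes. Reg3g had its 3 highest levels in the same sets, with 3721, 2428 and 3728 ppm in enterocyte-like cells and at most 1345 ppm in the other 5. Reg1 did not follow this order: its lowest enterocyte-like level, 2277 ppm, was in set 8 and its highest, 4057 ppm, in set 2. No source used here says what distinguishes the sets.

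Within enterocyte-like cells, position along the intestine was estimated from a score of 8 distal and 8 proximal scoring genes, none of them a Reg gene. Cells were ranked by this score within each set and divided into 5 equal regional bins, from bin 1 (proximal) to bin 5 (distal). The family split into 2 directions. Reg1 and Reg3a met the size rule as lower in the distal bin, as did 16.4% of the 7980 genes considered, and Reg3b and Reg3g met it as higher, as did 12.7%.

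Reg1 had the steepest profile of the family. From bin 1 to bin 5 it had 8269, 2758, 675, 84.7 and 52.3 ppm. It had 52.3 ppm in the distal bin and 8269 ppm in the proximal bin, a log2 difference of -7.28 (range over 8 sets -8.10 to -6.43). In sets 6 to 8 the distal level was 36.3 ppm, below the 106 ppm of T cell-like cells, so expression of Reg1 was not shown there. In size, the difference was larger than that of 99.97% of all genes considered. The bin in which Reg1 fell differed between sets: in bin 3, sets 2 and 5 still had 3807 and 3556 ppm, while the other 6 sets had 43.1 to 384 ppm. Bins are ranks within a set, so bin 3 need not be the same position in every set. A difference in position is not read from these values.

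Reg3a, a low-abundance member of the Reg3 group, fell more evenly, with 545, 376, 182, 103 and 68.5 ppm from bin 1 to bin 5. Its level was 68.5 ppm in the distal and 545 ppm in the proximal bin, a log2 difference of -2.97 (-4.87 to -1.84). With the distal scoring genes alone the difference was -1.70 and not in 1 direction in every set.

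Reg3b was lowest in bin 1, with 2323, 4861, 5307, 5288 and 6525 ppm. It had 6525 ppm in the distal bin and 2323 ppm in the proximal bin, a log2 difference of 1.49 (0.42 to 1.79). Reg3g had 814, 2181, 2668, 2674 and 3294 ppm along the bins, and its distal to proximal log2 difference was 2.01 (0.71 to 2.57). In sets 6 and 8 the distal bin had 10926 and 10966 ppm of Reg3b, and in the other 6 sets it had 2937 to 4187 ppm. For Reg3b the size of the difference depended on 1 cluster and on the scoring: the log2 difference was 0.57 without the cluster led by Saa1 and Nos2, 0.64 with the proximal scoring genes alone, 0.92 between 3 bins in place of 5 and 0.98 without rescaling, each under the size rule. Reg4 had 33.8 ppm in the distal and 17.0 ppm in the proximal bin (log2 difference 0.95), under the size rule and under the pooled T cell-like level.

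**Figure D2:**
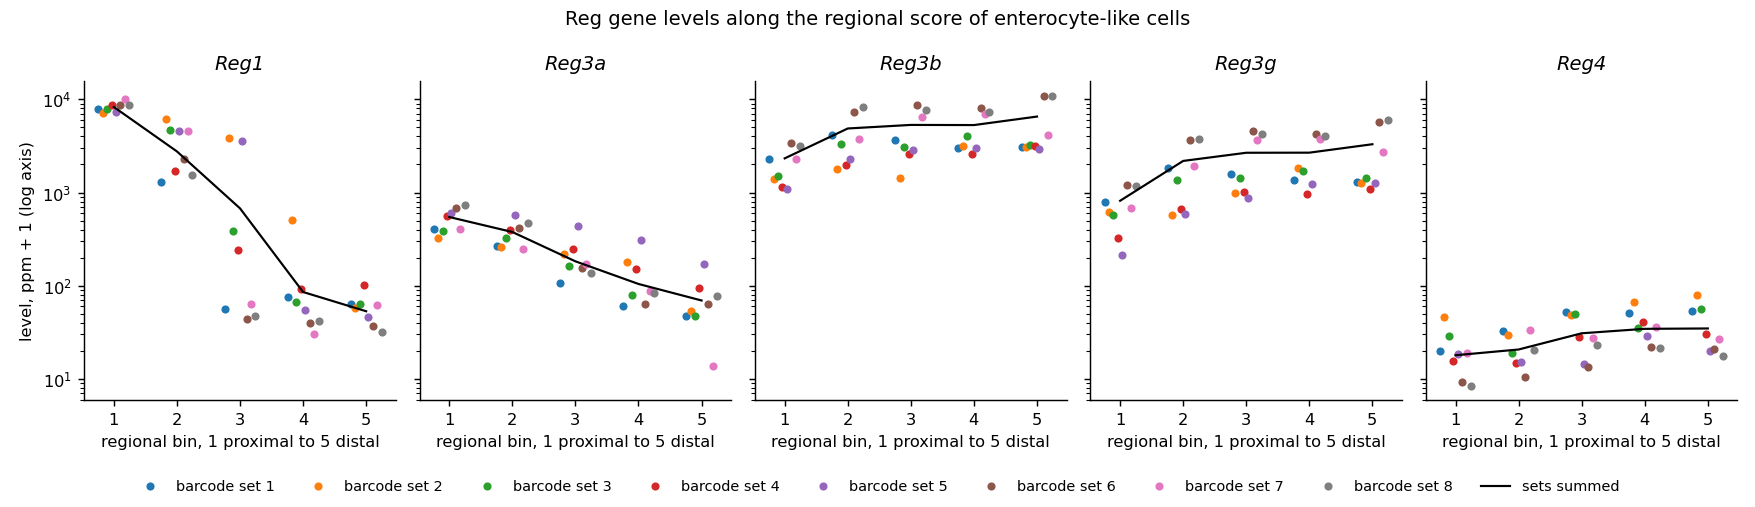
Level of each Reg gene (ppm + 1, log axis) in enterocyte-like cells by regional bin. Points are the 8 barcode sets and the line is the sum over sets: Reg1 ends at 52.3 ppm in bin 5, against 8269 ppm in bin 1, while Reg3b and Reg3g are higher in bin 5.

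The median number of detected genes also moved along the score, with 2856, 2507, 2023.5, 1771 and 1742.5 from bin 1 to bin 5. Markers of other cells moved with it. The Paneth markers summed to 5414 ppm in the distal and 1102 ppm in the proximal bin, and all 10 that were abundant enough met the size rule as higher. Goblet markers summed to 5293 ppm in the distal and 1453 ppm in the proximal bin. Their part in the Reg3b and Reg3g differences was not tested. With cells matched on detected genes, 4 members met the size rule, as in the main comparison.

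Secretory cells were also described by region, here divided only by the sign of the score. In goblet-like cells, which make mucus, Reg1 had 436 ppm where the score was above 0 (distal) and 2889 ppm where it was below 0 (proximal). In enteroendocrine-like cells, which release hormones, it had 181 ppm above 0 and 1760 ppm below 0. In tuft-like cells, which are chemosensory, it had 205 ppm above 0 and 1207 ppm below 0. Sets differ in their share of each side, so the values within sets 4 and 7, the 2 with at least 20 cells on both sides in all 3 classes, are also given. In goblet-like cells Reg1 had 1386 ppm above 0 and 3434 ppm below 0 in set 4, and 111 ppm above 0 and 598 ppm below 0 in set 7. In enteroendocrine-like cells it had 365 ppm above 0 and 1216 ppm below 0 in set 4, and 164 ppm above 0 and 1990.4 ppm below 0 in set 7. In tuft-like cells it had 1056 ppm above 0 and 2627 ppm below 0 in set 4, and 133 ppm above 0 and 545 ppm below 0 in set 7. Reg1 was thus lower above 0 within both sets, and in goblet-like and tuft-like cells set 4 exceeded set 7 on both sides. Reg3b ran the other way in goblet-like cells, with 3685 ppm above 0 and 2000 ppm below 0 over all sets. Within set 4 it had 1742 ppm above 0 and 1681 ppm below 0, and within set 7 it had 4272 ppm above 0 and 3667 ppm below 0, so the difference within a set was smaller than the pooled one. In progenitor-like cells Reg1 had 54.5 ppm above 0 and 141 ppm below 0, and 42.0% of these cells had a score of 0, so that the crypt division is coarse. Free RNA also enters the score of a cell, and its part in these values was not tested.

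Along the villus, enterocyte-like cells were ranked by 5 villus tip genes (Ada, Nt5e, Slc28a2, Klf4 and Egfr) within each set and regional bin, and divided into 3 equal layers, base, middle and tip. Reg3b and Reg3g met the size rule as lower in the tip layer than in the base layer, as did 0.729% of the 7959 genes considered (3.49% met it as higher and 4.22% in either direction). Reg3b had 2226 ppm in the tip layer and 7096 ppm in the base layer, a log2 difference of -1.67 (-2.12 to -0.16). Reg3g had 1145 ppm in the tip layer and 3265 ppm in the base layer, a log2 difference of -1.51 (-1.86 to -0.31). The direction was the same in 8 of 8 sets for both genes. This result depends on cluster 21, an enterocyte-like cluster led by villus tip genes. It made up 29.9% of the tip cells and 0.3% of the base cells, and had been left unnamed by an earlier form of the naming rule. Under that form Reg3b differed by -1.25 and not in 1 direction in every set, so it did not meet the size rule, and Reg3g differed by -1.08 and met it. With the stricter cell filter, Reg3g (-1.62) was not in 1 direction in every set. Cluster 5, whose leading genes also include Slc28a2, Nt5e and Ada, stayed unnamed, so its 1199 cells are in no layer. It had 969 ppm of Reg3b. The tip layer thus does not hold all cells with villus tip genes. The layers differed in other clusters too. Clusters 26 and 15, the enterocyte-like clusters highest in Reg3b (19883 and 9333 ppm), made up 12.1% and 21.3% of the base cells. In the tip layer they made up 1.43% and 4.13%. How much of the villus difference came from this make-up was not tested.

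This villus difference was seen mainly outside the proximal bin. In bin 3, Reg3b had 9651 ppm in the base layer, 4674 ppm in the middle layer and 1409 ppm in the tip layer. In bin 5 it had 9813, 6718 and 2835 ppm from base to tip. In bin 1, by contrast, it had 2453, 2442 and 2069 ppm from base to tip. Reg3g was alike, with 4686, 2319 and 915 ppm from base to tip in bin 3, and 864, 858 and 718 ppm in bin 1. Whether the villus difference itself differs between bins was not tested.

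Reg3a had 182 ppm in the tip layer and 341 ppm in the base layer (log2 difference -0.90, lower in 8 of 8 sets), which did not reach the size rule. Reg1 had 2638 ppm in the tip layer and 2986 ppm in the base layer (log2 difference -0.18), lower in 4 of 8 sets only. Within bin 1, where Reg1 was abundant, it had 9148, 7014 and 8726 ppm from base to tip, with no steady slope. Where layers were taken without regard to the regional bin, Reg1 differed by -2.77, Reg3a by -2.40, Reg3b by -1.22 and Reg3g by -0.82 between tip and base, and only Reg1 and Reg3a met the size rule, so these values depend on separating the 2 axes. The median of detected genes was 1866 in the tip layer and 2307 in the base layer.

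**Figure D3:**
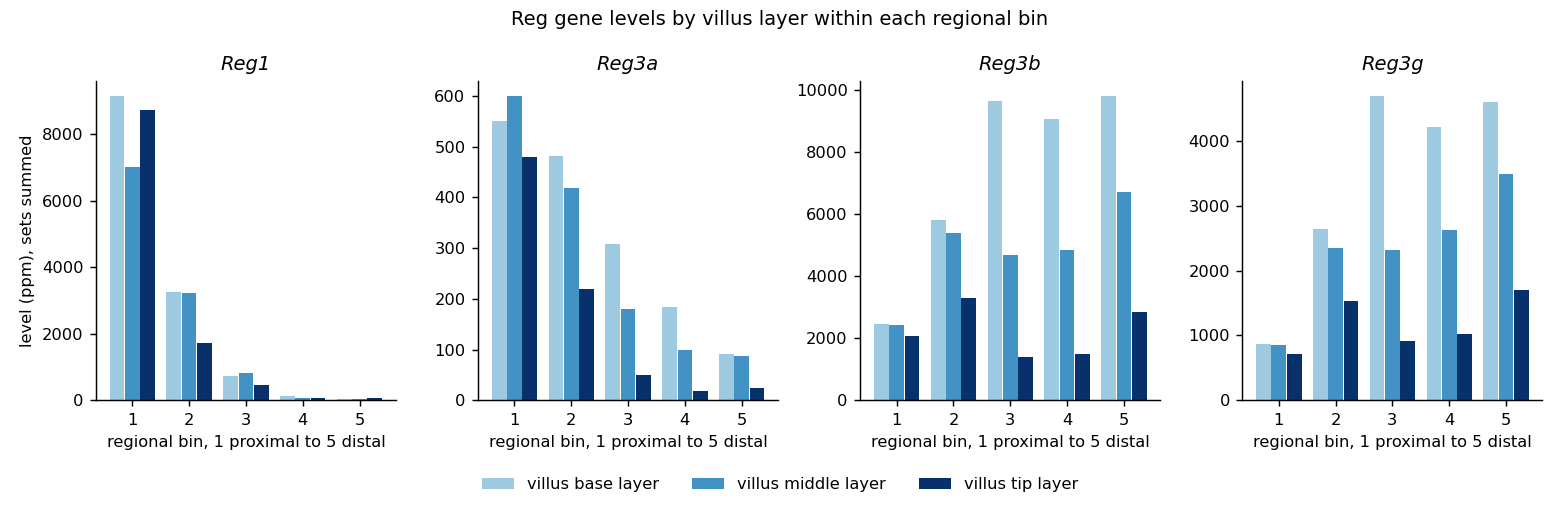
Level (ppm, 8 barcode sets summed, bars from 0) of 4 Reg genes in the base, middle and tip layers of the villus within each regional bin. Reg3b falls from base to tip in bins 2 to 5, to 1409 ppm in the tip layer of bin 3, while Reg1 is found mainly in bins 1 and 2.

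Single clusters held much of each gene. Cluster 23 (652 enterocyte-like cells, led by S100g, a calcium-binding protein, Akp3, an intestinal alkaline phosphatase, and Slc40a1, the iron exporter ferroportin) had 18486 ppm of Reg1, and 99.1% of its cells had a value. Its range over the 8 sets was 14630 to 23345 ppm. It held 48.9% of all Reg1, while Reg3b was only 1122 ppm there. Cluster 16 (led by G0s2, an inhibitor of lipolysis, and Cyp4a10, a fatty acid hydroxylase) followed with 4987 ppm of Reg1. Reg3a peaked elsewhere, at 774 ppm in cluster 24, led by the antimicrobial peptide gene Leap2, with 92.5 ppm in cluster 23.

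Reg3b and Reg3g shared their highest clusters. Cluster 26 (491 enterocyte-like cells) had 19883 ppm of Reg3b and 9378 ppm of Reg3g. Its leading genes were Saa1, an acute phase protein, Nos2, the inducible nitric oxide synthase, the chemokine genes Cxcl10 and Ccl20, and the ileal bile acid genes Fabp6 and Slc10a2. In 57.8% of its cells Reg3b took more than 1% of all values. The share was 7.08% in the 2473 enterocyte-like cells of bins 4 and 5 outside the cluster, which had 3260 ppm. Cluster 26 itself was not limited to those bins, and it made up 1.81% of bin 2 and 5.24% of bin 3. In sets 1, 4, 6 and 8, the 4 with at least 20 cells of cluster 26, Reg3b had 10389, 7033, 24029 and 22880 ppm in cluster 26 and 2249, 2408, 3957 and 4501 ppm in those other cells. Cluster 26 was higher in each of the 4 sets. Of its cells, 42.8% came from set 6.

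The second highest was cluster 12, with 14410 ppm of Reg3b and 6557 ppm of Reg3g in 1019 cells that no marker list named. It was led by Car1, a carbonic anhydrase, and 3 gasdermin C genes, and held 22.0% of all Reg3b. At the other end, cluster 21, led by the villus tip genes Ly6m, Nt5e and Ada, had 1002 ppm of Reg3b. In sets 6 to 8 it had 1375 ppm there, against 1133 ppm in T cell-like cells. Cluster 6, led by genes that include the stem cell gene Gkn3, had the lowest level, 163 ppm.

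**Figure D4:**
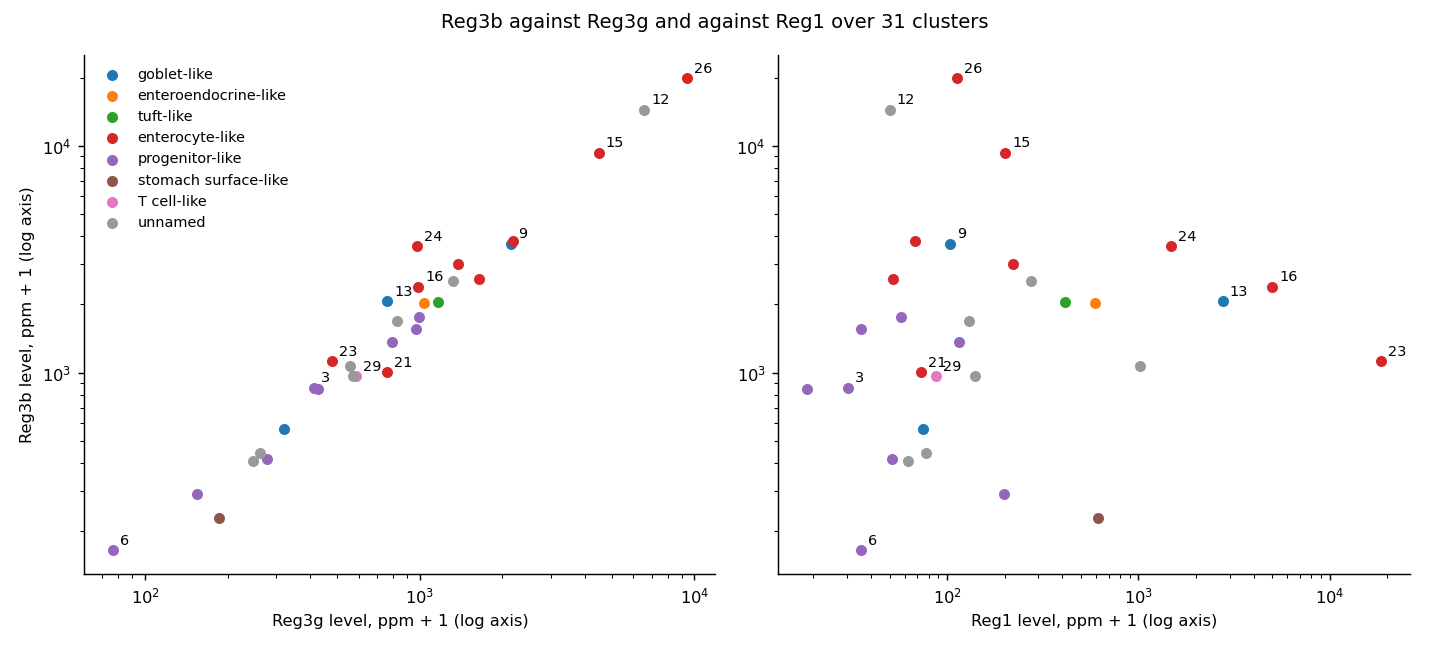
Level of Reg3b (ppm + 1, log axis) against Reg3g (left) and Reg1 (right) in 31 clusters, with a point for each cluster, coloured by class. Only some of the clusters are numbered. Reg3b and Reg3g lie along a line up to cluster 26, whereas cluster 23, highest in Reg1 at 18486 ppm, is low in Reg3b.

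The separation held in single cells. Of 7163 enterocyte-like cells, 655 had more than 1% of their values in Reg1, 887 in Reg3b and 344 in Reg3g. Of the Reg3g cells 96.8% were also Reg3b cells, and of the Reg3b cells 37.5% were also Reg3g cells. Reg1 and Reg3b were above 1% together in 19 cells, which were 2.90% of the Reg1 cells and 2.14% of the Reg3b cells. Reg1 and Reg3g were above 1% together in 0 of 7163 cells. These cells come from different regional bins, as described above, so the overlap is a description of position as well as of cells.

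Across the 31 clusters, log2 levels of Reg3b and Reg3g had a Pearson r of 0.98. Reg1 had an r of 0.60 with Reg3a and 0.11 with Reg3b, and Reg3a had 0.68 with Reg3b. Clusters share libraries and free RNA, so these are descriptions. The ratio of Reg3b to Reg3g was 2.11 in enterocyte-like and 1.77 in progenitor-like cells. It was 2.85 in the proximal bin, 1.98 in the distal bin and 1.66 in T cell-like cells, so that over all sets the proximal bin had relatively more Reg3b. The order was reversed in set 2 only. There Reg3b and Reg3g had 1391 and 620 ppm in the proximal bin, and 3070 and 1277 ppm in the distal bin.

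Among 9196 genes, those with the most similar profile over the 31 clusters were named for each member. For Reg1 they were S100g (r 0.94), Fth1, Sult6b2, Gm3776 and Plac8. Reg3a was most like Cyp2c68 (r 0.92), Fbp2, Aldh9a1, Cox7a1 and Tmed4. After each other, Reg3b and Reg3g had the same next 4 genes, in the same order: Bcl2l15 (r 0.91 and 0.89), Mgat4c, Fabp6 and Nr1h4, the bile acid receptor. For Reg4 they were Itln1 (r 0.93), Lyz1, Sst, Defa22 and Defa29, of which Lyz1, Itln1 and the Defa genes are Paneth cell products and Sst encodes somatostatin. No Paneth cluster was found, and Lyz1 had 207 ppm in enterocyte-like and 209 ppm in progenitor-like cells. This likeness therefore does not place Reg4 in Paneth cells, and the part of free RNA in it was not tested.

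Secretory cells were set against enterocyte-like cells. Only Reg3a met the size rule in goblet-like cells, with 106 ppm there and 277 ppm in enterocyte-like cells (log2 difference -1.37, -5.64 to -0.60), as did 11.5% of the 8508 genes considered as lower. Without set 7 the Reg3a difference was -0.79, and Reg3g reached the rule at -1.43. Reg1 had 1261 ppm in goblet-like and 2736 ppm in enterocyte-like cells (-1.12, lower in 6 of 8 sets). The 2 large goblet-like clusters differed: cluster 13, of which 83.8% came from set 4, had 2749 ppm of Reg1, and cluster 9, of which 80.5% came from set 7, had 103 ppm.

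In enteroendocrine-like cells, with 5 usable sets, all 5 members met the size rule: 4 as lower (13.3% of the 8643 genes considered) and Reg4 as higher (11.2%). Reg1 had 595 ppm in enteroendocrine-like and 2736 ppm in enterocyte-like cells, a log2 difference of -2.20 (-2.61 to -1.41). Reg3a differed by -2.40, Reg3b by -1.21 and Reg3g by -1.10. The Reg3b and Reg3g differences were -0.93 and -0.97 without set 7, and without set 6 the Reg3g difference was -0.88, all under the rule. Marker sums of other cell types moved with these groups. Stem markers summed to 3087 ppm in enteroendocrine-like and 453 ppm in enterocyte-like cells (6 of 10 considered met the rule as higher), transit-amplifying markers to 2176 and 291 ppm (7 of 10), Paneth markers to 7708 and 3280 ppm (5 of 10) and enterocyte markers to 9794 and 41085 ppm (10 of 12 as lower). Their part in the differences was not tested. In tuft-like cells, with 2 usable sets, Reg1 had 410 ppm against 2736 ppm in enterocyte-like cells (-2.74) and Reg3a had 40.2 ppm against 277 ppm (-2.75). Both met the rule as lower, as did 18.1% of the 8597 genes considered, but neither did with cells matched on detected genes. Without set 4, which leaves 1 set, Reg3b (-1.41) and Reg3g (-1.10) met it too. Stem markers summed to 3549 ppm in tuft-like and 453 ppm in enterocyte-like cells and Paneth markers to 7716 and 3280 ppm, with their part likewise not tested.

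Reg4 ran in the other direction. It had 67.3 ppm in enteroendocrine-like and 25.9 ppm in enterocyte-like cells (log2 difference 1.34, 0.73 to 1.90), higher in 5 of 5 sets. Its enteroendocrine-like level was about that of T cell-like cells, 66.9 ppm, and the shares of cells with a value were 18.7% and 22.7%, at medians of 1704 and 1647.5 detected genes, so expression above background was not shown. Goblet-like cells had 103 ppm of Reg4 against 25.9 ppm in enterocyte-like cells (1.95), higher in 5 of 8 sets, and without set 7 the difference was 0.88.

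A small number of cells carried most of the goblet-like Reg4. In cluster 9, 34 of 1044 cells had a value of at least 5, and they held 62.6% of the cluster's Reg4, with a highest value of 54. Of these 34 cells, 32 were in set 7. Only 86 of all 27834 cells reached that value, and none of the 22 T cell-like cells did. Another 23 were in unnamed cluster 2, which is led by haemoglobin genes and includes the hormone genes Ghrl and Sst, all in set 7.

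**Figure D5:**
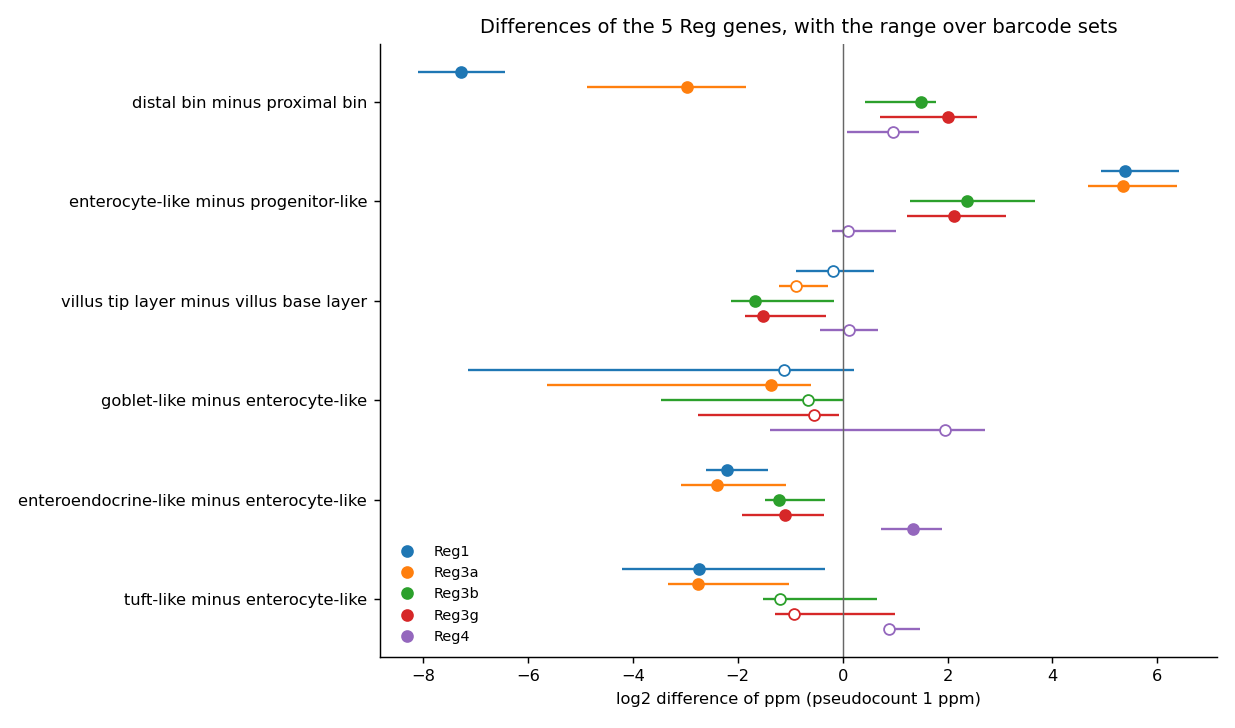
Log2 difference of each Reg gene in 6 comparisons, summed over barcode sets (circle, filled where the size rule was met) with the lowest and highest barcode set (line). Reg1 runs from -7.28 (distal minus proximal bin) to 5.38 (enterocyte-like minus progenitor-like), and Reg3b and Reg3g move together in each comparison.

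Genes of the pathways known to induce Reg3b and Reg3g were listed by name, with some related genes. The interleukin-22 and STAT3 list also holds Il4ra, Il13ra1 and Stat6, genes of another cytokine pathway. Its counts therefore do not measure interleukin-22 signalling alone. In the distal against the proximal bin, 4 of 10 considered genes of the interleukin-22 and STAT3 list met the size rule as higher and 0 as lower, beside 12.7% of all genes considered as higher and 16.4% as lower. The receptor gene Il22ra1 had 58.9 ppm in the distal and 18.3 ppm in the proximal bin (1.63), and the feedback inhibitor Socs3 had 18.9 ppm in the distal and 3.16 ppm in the proximal bin (2.26). Stat3 (1.21) and Il4ra (1.25) were the other 2. Of 7 genes of microbial sensing through MyD88, Nfkb1 alone was higher (1.07). The list medians were 0.38 and 0.20, with -0.05 over all genes.

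Of 8 other inducible defence genes considered, 4 were higher in the distal bin and 2 lower, beside the same 12.7% and 16.4% of all genes. Saa1 had 245 ppm in the distal and 0.888 ppm in the proximal bin, and Nos2 had 161 ppm in the distal and 3.85 ppm in the proximal bin. Cluster 26, which these 2 genes lead, made up 17.55% of the distal bin and 0% of the proximal bin. Its part in these differences was not tested. Duox2 and Duoxa2, which form a hydrogen peroxide-producing oxidase, were the other 2 that were higher. Pigr, the transporter of secretory immunoglobulin, and Il18 were lower, with Il18 at 47.1 ppm in the distal and 339 ppm in the proximal bin.

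From villus base to tip the same lists were also counted. None of the 10 genes of the interleukin-22 and STAT3 list or the 7 MyD88 genes met the size rule, as 4.22% of all genes did. The medians were 0.33 and 0.21, with -0.19 over all genes. Stat3 had 132 ppm in the tip layer and 100.2 ppm in the base layer. Among 9 other inducible genes Duoxa2 was higher in the tip layer, with 65.5 ppm there and 26.004 ppm in the base layer, and Gsdmc4 was lower (-1.72). Nos2 had 33.2 ppm in the tip layer and 136 ppm in the base layer, lower in 6 of 8 sets only. In enterocyte-like against progenitor-like cells, 5 of 9 genes of the interleukin-22 and STAT3 list were higher and 0 lower. Beside them, 15.6% of all genes were higher and 33.0% lower. Among the 5 was Il22ra1, with 40.4 ppm in enterocyte-like and 7.78 ppm in progenitor-like cells (2.24). The others were Il10rb (1.37), Stat3 (1.58), Il4ra (1.91) and Il13ra1 (1.95). Extl3, described as a receptor for Reg proteins, ran the other way, with 9.47 ppm in enterocyte-like and 24.9 ppm in progenitor-like cells (-1.31).

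The 162 stomach surface-like cells, marked by Gkn1, Tff1 and Muc5ac, had 614 ppm of Reg1 and 228 ppm of Reg3b. Over the 4 sets with at least 20 of these cells, Reg1 had 25.6 to 998 ppm.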

How the data were processed

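Per the labels' protocols, mouse small intestine was cut into pieces, cells were tagged with MULTI-seq barcodes and sorted, and libraries were made with 10x Genomics 3' chemistry. Cell Ranger and mm10 are named by the submitters' processing notes, without a version or a cell filter. The deposited table holds whole numbers treated as a score, not as counts: 2 was a commoner value than 1 in 25.3% of cells, and totals per cell spanned 2764 to 9739. The design had allowed for this unit, so values are described with no test. The segment barcode of a cell was not used here.

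A minimum of 500 detected genes and a maximum of 25% mitochondrial values removed 2 cells. Scrublet (expected rate 0.06) marked 45 cells (0.161%) as doublets. This share was taken as too low to rely on the caller. No label says whether doublets had been removed earlier, and some may remain. Using scanpy 1.11.5 and leidenalg 0.10.2, 30 components of 2000 variable genes were clustered (15 neighbours, resolution 2) without the 7 Reg genes, with igraph 0.11.9, scikit-learn 1.9.0, numpy 2.4.6, pandas 2.3.3, biopython 1.88, matplotlib 3.10.9 and scipy 1.17.1 under Python 3.11.15.

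To name a cluster, 3 or more markers of 1 list had to reach 10 ppm and 2-fold over all other cells. The list's median log2 difference also had to exceed that of every rival list with 3 such markers by 0.5, and a cluster stayed unnamed where at least 2 rival markers, and more than its own, were among its 10 leading genes. This rule was written after the clusters were seen, and was revised once when the Reg levels of the clusters were already in view. As first written it had a margin of 0.25, with every list as a rival. The revision made cluster 21 enterocyte-like, made cluster 22 progenitor-like and left cluster 7, at first progenitor-like, unnamed. All comparisons were also run with the first form. The level of 1% per cell, the Reg4 value of 5 and the comparison of cluster 26 were also chosen after values were seen. Members and gene lists were chosen with earlier results of these data known.

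Sums were scaled to ppm, with a pseudocount of 1 ppm on the log2 scale, which understates differences of low genes. The regional score is the mean natural log of (1 + value per 10000) over distal minus proximal scoring genes, and for 28.9% of enterocyte-like cells a bin boundary was 0.1 SD away or nearer. Named genes are the members, up to 4 genes of each list with the largest differences, and 5 genes per member by correlation over clusters. Leading genes of clusters, and genes named to complete a count, were added by their values. Shares of cells carry counting error only. The size rule was also run on simulated counts with planted changes larger than its limit. The deposited values are not treated as counts, so this run gives no error rate for the results here. Alternatives were another pseudocount, filters, weighting, clustering, matching, scoring and leaving out each barcode set.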

Additional observations from a re-analysis of the deposited data

Results flagged for a closer look

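Of 20 combinations of a gene and a cell class, 2 had a barcode set that stood apart from the others, where chance flags about 1 in 20. Reg3b in the enteroendocrine-like cells of barcode set 8 had 5835 ppm. Among the 5 sets with at least 20 such cells, the next highest had 1809 ppm and the median was 1208 ppm. Set 6, left out with 11 such cells, had 6657 ppm. Sets 6 to 8 were also the highest in enterocyte-like and progenitor-like cells, as described above, so set 8 does not stand alone. Reg4 in the progenitor-like cells of barcode set 2 had 41.9 ppm, against 21.9 ppm in the next highest and a median of 19.8 ppm over 8 sets.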

How the results depend on the processing

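No difference of a member that had met the size rule changed sign under any alternative run, and 98 recomputed counts of members stayed within 1.5 times the main count, while 10 did not. The count for tip against base (2) was 1 with the stricter cell filter and 1 under the naming rule as first written, where Reg3b did not meet the size rule. For goblet-like cells (1) it was 0 with cells matched on detected genes. For enteroendocrine-like cells (5) it was 3 with matched cells, with sets weighted equally and without sets 4 and 7, and 3 to 5 with 1 set left out. For tuft-like cells (2) it was 0 with matched cells, 4 at resolution 1, and 2 to 4 with 1 set left out. The cause was not tested. For distal against proximal cells, 3 members met the rule without cluster 26, against 4. The first naming rule, leaving out sets 4 and 7 or cluster 26, and adding clusters 12 and 18 to the enterocyte-like cells, were chosen after seeing the data. Without sets 4 and 7 no set had 20 tuft-like cells, so that value could not be had, and the Paneth comparison was not run. No paired analysis was possible because no difference between groups was tested and the labels' replicate numbers cannot be tied to cells. Differences were instead taken within each barcode set and given as ranges over sets. The unknown depth limits statements on Reg4 and on crypt levels most.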
